A study of Mus musculus with 24 samples.

Results

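Of the 24 arrays of a circadian time course of the mouse suprachiasmatic nucleus (SCN), 10 are described here. They are the 5 arrays at time points T18, T20, T22, T24 and T26 of the first cycle and the 5 arrays at T42, T44, T46, T48 and T50, taken 24 h later at the same circadian times. These arrays were chosen because the transcripts of growth hormone (Gh) and prolactin (Prl), hormones of the anterior pituitary, were high on the early 5 in these same data. The levels of these hormones in the 10 arrays are therefore a description, and so are all other differences between these groups. No p-value is given for any gene, and the model fitted to them is reported as counts. Genes that it called under alternative settings are named in the last section and are not test results. The window ends between T26, with a Gh level of 9.22 on the log2 scale, and T28, with 6.79. The other 14 arrays, T28 to T40 (7 arrays) and T52 to T64 (7 arrays), lay outside that window, where Gh was lower, and carry the tests. Their own Gh and Prl levels are thus not independent of the choice of arrays and are described without a test between the cycles. The question is which other transcripts were high together with Gh and Prl, and which differ between the cycles without them.

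Every array carries RNA labelled as SCN, an equal mix of the extracts of 3 mice of the strain C57/BL6. All mice had been entrained to a light-dark schedule and were then kept in complete darkness, with no other treatment, from before the first collection at T18. The early group thus had spent less time in darkness than the group 24 h later, and time in darkness and order of collection cannot be told apart in this design. The labels do not give age or sex, nor how the tissue was cut out. Each time point has 1 array, so the spread comes from pairs of arrays at different circadian times, the small number of arrays limits the precision, and p-values measure only the spread between these arrays. SCN transcripts were present at similar levels in both groups. Vip, a peptide of SCN neurons, lay between 9.59 and 10.53 in the early 5 and between 9.50 and 10.49 in the later 5, and Avp, which encodes vasopressin, between 10.18 and 11.20 and between 10.54 and 11.14.

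The anterior pituitary is a gland below the hypothalamus, outside the brain proper. Its somatotrophs make growth hormone, its lactotrophs prolactin, its corticotrophs cut ACTH from the Pomc precursor, and its thyrotrophs and gonadotrophs join the common subunit Cga to a specific beta subunit (Tshb, Fshb or Lhb). Hypothalamic releasing factors control these cells through receptors such as Ghrhr, Trhr, Crhr1 and Gnrhr, and factors such as POU1F1, PITX1 and TBX19 give the cells their identity. Pomc is not only a pituitary gene, since neurons of the hypothalamic arcuate nucleus also express it.

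Array medians lay between 6.24 and 6.36 on all 24 arrays. The mean over 1194 olfactory and vomeronasal receptor genes, taken as a measure of array background, lay between -0.15 and 0.01 around the series mean in the early 5 and between -0.12 and -0.02 in the later 5, and with it as a covariate the differences of Gh and Prl were 4.39 and 2.42. Among the 14 other arrays T40, T62 and T64 had the highest background, 0.34, 0.19 and 0.16, and T40 also stood apart in its median correlation with the other arrays (0.9703, against 0.9866 to 0.9911 on the 10 arrays described here).

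The Gh level, given as log2 intensity, was 9.53 at T18, 11.96 at T20, 10.42 at T22, 9.14 at T24 and 9.22 at T26. The later 5 arrays read 5.17 at T42, 5.20 at T44, 4.60 at T46, 8.13 at T48 and 5.34 at T50. All early arrays lay above all later ones, and T48 stood far above its neighbours T46 and T50. Fewer cells of a type and less RNA per cell cannot be told apart in such bulk tissue. The mean difference was 4.37 ± 2.20 log2 units (SD, n = 5 pairs), a 20.6-fold ratio, and the pairs ran from 1.01 for T24 against T48 to 6.77 for T20 against T44. Without the pair that holds T48 the mean difference was 5.21, and without the pair that holds T20 it was 3.77. Among the 14 other arrays, T28, T30 and T32 read 6.79, 7.32 and 7.33, T64 read 6.09, and the rest lay between 4.92 and 5.68.

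Prl was likewise highest on T20, followed by T22. Its level was 6.92 at T18, 10.04 at T20, 8.24 at T22, 6.84 at T24 and 7.34 at T26, against 5.12, 5.38, 5.09, 6.09 and 5.27 at T42 to T50. The groups did not overlap, T20 was again the highest array and T48 the highest of the later 5. The mean difference was 2.49 ± 1.48 log2 units (SD, n = 5 pairs), a 5.6-fold ratio. Cga, the subunit shared by thyroid-stimulating and gonadotropic hormones, read 6.39, 8.71, 6.25, 5.10 and 5.81 at T18 to T26 and 4.81, 4.94, 4.60, 5.60 and 4.83 at T42 to T50. T20 stood highest once more, but T24 lay below its partner T48, so that 4 of 5 pairs were higher in the first cycle, with a mean difference of 1.49 ± 1.54 (SD, n = 5 pairs), or 0.92 without the pair that holds T20. The mean of Cga over the 24 arrays was below the filter on dim genes. Cga was thus left out of the main fits over all genes and was tested only for its correlation with Gh, given below.

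The beta subunits were near one level throughout. Tshb, the beta subunit of thyroid-stimulating hormone, ranged from 5.22 to 5.95 in the early 5 and from 5.21 to 5.34 in the later 5, with its highest value of all 24 arrays at T20. Fshb, of follicle-stimulating hormone, ranged from 4.56 to 5.24 and from 4.25 to 4.93, and Lhb, of luteinising hormone, from 5.84 to 6.40 and from 5.82 to 6.14. Both, too, had their highest value of all 24 arrays at T20. Their mean differences, 0.18 ± 0.29 for Tshb, 0.19 ± 0.38 for Fshb and 0.05 ± 0.19 for Lhb (SD, n = 5 pairs), were no larger than the spread between pairs. Of the 7 hormone genes all had a probe set and 4 passed the filter, and in 2 of these, Gh and Prl, the early 5 arrays lay above the later 5. Over the 13956 genes tested the early 5 lay above the later 5 in 132 (0.946%) and below them in 88 (0.631%). Since the arrays were chosen by these hormones, nothing is read from that count.

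**Figure D1:**
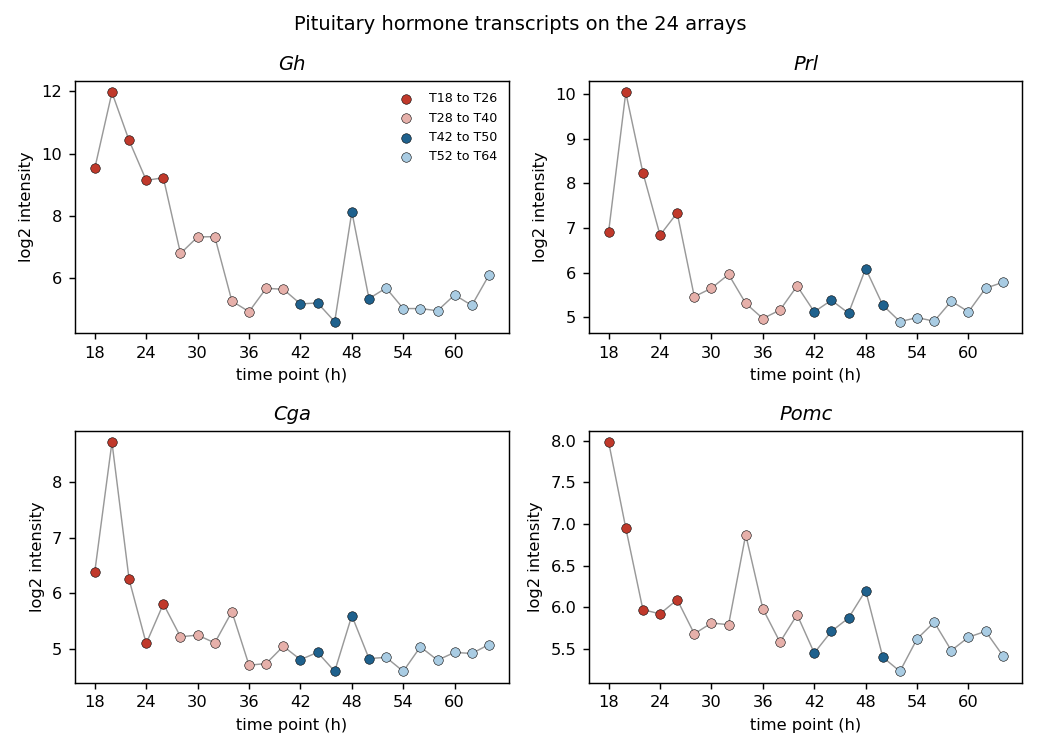
Log2 intensity of Gh, Prl, Cga and Pomc (vertical axes, each with its own range) against time point in hours, 1 point per array, coloured by group. Gh, Prl and Cga are highest at T20 and Gh and Prl are above all T42 to T50 arrays at each of T18 to T26, while Pomc is highest at T18, with a further high array at T34.

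The start regions of Prl and Cga are shown because these transcripts were high on the same arrays and belong to different pituitary cells. The sequences are the 250 bases before each RefSeq start on GRCm38.p6, both on the plus strand, chr13:27057320-27057569 for Prl and chr4:34893529-34893778 for Cga. Capitals mark matches, on either strand, to ATGNATA, a short form of the site that POU1F1 binds.
Prl: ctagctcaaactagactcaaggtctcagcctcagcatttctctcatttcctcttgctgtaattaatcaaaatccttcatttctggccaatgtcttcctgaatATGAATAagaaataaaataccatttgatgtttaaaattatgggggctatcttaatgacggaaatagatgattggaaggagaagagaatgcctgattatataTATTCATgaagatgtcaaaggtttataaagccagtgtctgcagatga
Cga: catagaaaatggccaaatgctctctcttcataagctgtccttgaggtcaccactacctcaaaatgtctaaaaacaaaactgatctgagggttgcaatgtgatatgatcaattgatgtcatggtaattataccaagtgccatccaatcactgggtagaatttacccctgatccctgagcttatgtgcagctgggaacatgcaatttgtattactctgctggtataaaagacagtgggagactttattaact
The motif was found at 2 places in the Prl window, 148 to 142 and 47 to 41 bases before the start, and at 0 places in the Cga window. Of 32851 windows of this length, 7.9% held it. A match of these letters is not evidence of binding, and the arrays hold no measurement of it.

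Pomc, the precursor of ACTH, had another order of arrays. It read 7.98 at T18, 6.95 at T20, 5.97 at T22, 5.92 at T24 and 6.09 at T26, and 5.45, 5.71, 5.87, 6.20 and 5.40 at T42 to T50. Only T18 and T20 lay above all later arrays, and the mean difference was 0.86 ± 1.10 (SD, n = 5 pairs), or 0.44 without the pair that holds T18. T34, where Gh was only 5.26, had 6.87, and the remaining 13 of the 14 other arrays lay between 5.23 and 5.98. Npy, a peptide of arcuate neurons among others, was high on the same arrays, T18 and T34, with 9.86 and 10.18. On T20 it was 7.86 and on T24 8.96, and the later 5 arrays lay between 7.92 and 8.11. Of the other 6 tested genes in a list of arcuate neuron genes, added after these values had been seen, Cartpt was also highest on both arrays, with 10.06 at T18 and 10.21 at T34, and Ghrh, the releasing hormone of somatotrophs, had 8.14 and 7.87. Tbx3 read 6.31 and 6.43. Tac2, Kiss1 and Slc6a3 differed by -0.64, -0.13 and -0.02 between T18 and T42 and by -0.08, 0.07 and 0.17 between T34 and T58. How much of the Pomc signal at T18 goes with pituitary and how much with arcuate tissue was not tested.

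The transcription factors that mark pituitary cell identity were close in both groups. Of 16 pituitary transcription factors 12 had a probe set and 7 passed the filter, and in 0 of the 7 did the groups of 5 stand apart. Over all genes tested 0.946% stood apart as higher and 0.631% as lower. A count of 0 is thus usual for a short list, here and in the lists below, and nothing is read from it. The median difference of the 7 was -0.04, against 0.00 over all genes tested, and the range was -0.15 for Pax7, a factor of melanotrophs, to 0.15 for Isl1. Relative to the series mean, the mean level of these 7 genes lay between -0.11 and 0.01 on the early 5 arrays, with the lowest value on T20, and between -0.11 and 0.07 on the later 5. Tbx19, the corticotroph factor, and Pitx1, an early pituitary factor, were below the filter, at 5.24 to 5.43 and 4.70 to 4.98 in the early 5 and 5.20 to 5.50 and 4.85 to 5.05 in the later 5. The other 4 listed factors were not analysed here.

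Of the 10 receptors for the releasing factors 7 passed the filter, and in 0 of these did the groups stand apart. Ghrhr, through which GHRH acts on somatotrophs, was 6.99 to 7.13 in the early 5 and 6.91 to 7.22 in the later 5. Drd2, the dopamine receptor that restrains prolactin release, was 6.66 to 7.12 and 6.90 to 7.06, and Trhr 6.24 to 7.09 and 6.26 to 6.80. Their median difference was -0.06, between -0.16 for Sstr5 and 0.14 for Trhr. The granins and prohormone-processing enzymes, which the SCN and the pituitary both express, had 0 of 10 genes apart and a median difference of -0.03. Chga, a granin, differed by 0.17 ± 0.27 and Pcsk1, a prohormone convertase, by 0.16 ± 0.12 (SD, n = 5 pairs).

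**Figure D2:**
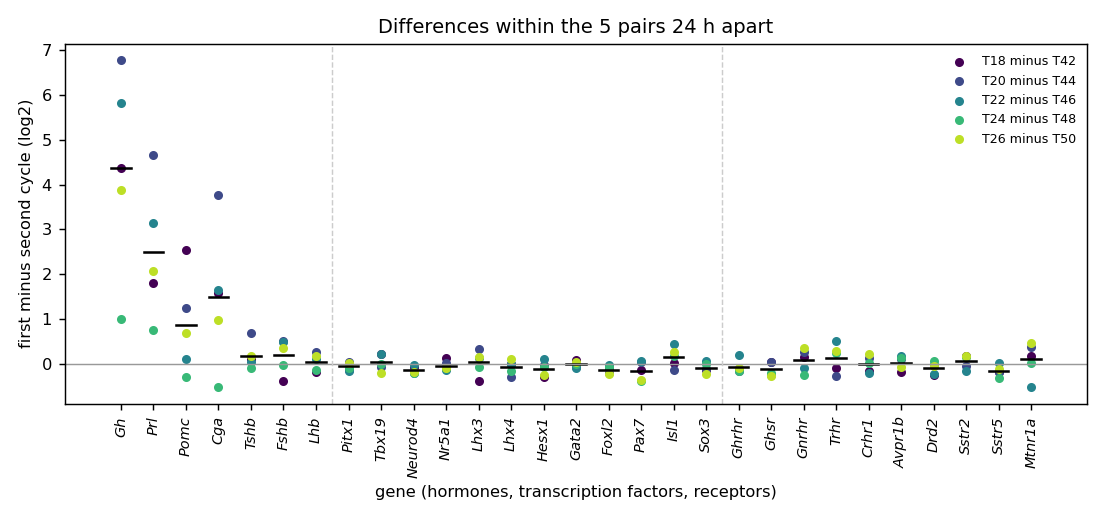
First-cycle minus second-cycle difference in log2 units (vertical axis) for each measured pituitary hormone, transcription factor and receptor gene (horizontal axis, split by dashed lines), with 1 point per pair coloured by pair and a black bar at the mean of 5. Gh, Prl, Cga and Pomc have means of 4.37, 2.49, 1.49 and 0.86, and every gene right of the hormones has a mean between -0.16 and 0.15.

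Genes of the response to both hormones, which signal through JAK2 and STAT5, differed little. The median difference of the 10 tested genes was 0.03. Of these genes 0 stood apart, against 0.946% (higher) and 0.631% (lower) of all genes tested. Socs2, a feedback inhibitor induced by growth hormone, was higher in 5 of 5 pairs by 0.17 ± 0.10 (SD, n = 5 pairs), at 6.94 to 7.19 against 6.84 to 7.14. The growth hormone receptor Ghr read 7.16 to 7.40 in the early 5 and 7.11 to 7.35 in the later 5, and Igf1, its main target in liver, 6.03 to 6.41 and 5.90 to 6.60. Bcl6, which STAT5 represses, differed by -0.08 ± 0.26.

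Beyond the hormones, the largest differences belonged to S100a8 and S100a9, the calprotectin subunits, which neutrophils carry in large amounts. S100a9 read 7.78, 9.60, 7.96, 8.16 and 7.97 at T18 to T26 and 7.64, 6.87, 7.28, 7.13 and 7.68 at T42 to T50. The groups did not overlap, but T18 at 7.78 and T50 at 7.68 nearly met, and T20 again stood highest. The mean difference was 0.98 ± 1.04 (SD, n = 5 pairs), 0.54 without the pair that holds T20, 0.37 without the pairs that hold T20 and T48, and 0.78 in a model that also held the background level of the arrays. S100a8 differed by 1.23 ± 1.15, or 0.78 without the pair that holds T20, with T20 at 8.72 and T18 at 6.43, below the 6.58 of T50. In the other arrays S100a9 was 9.03 on T28, where Gh was 6.79, and 8.45 on T54, where Gh was 5.02. Lcn2, lipocalin 2, was high on T24 and T20 (7.30 and 6.69) but also on T42 and T54 (7.09 and 7.30). Of the 14 measured genes in a neutrophil list added after S100a9 had been seen, 4 passed the filter, of which 1, S100a9, stood apart, and their median difference was 0.66. The mean of the 4 lay between -0.08 and 1.27 around the series mean on the early 5 and between -0.58 and 0.43 on the later 5. Among the dim members, Ngp, a granule protein, was 5.13 to 5.55 against 4.89 to 5.08, while Mpo and Elane, enzymes of neutrophil granules, differed by 0.04 ± 0.11 and -0.06 ± 0.20 (SD, n = 5 pairs). Ppbp, a platelet chemokine, was likewise highest at T54 and T20, with 7.81 and 7.40, and of the 5 tested genes of an added platelet list 0 stood apart, with a median of 0.03. The part of blood cells in the high T20 values was not tested.

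Over the 14 other arrays the levels of 5 genes were correlated with Gh, and none passed 0.05 after adjustment over the 5. For Prl, Pearson r was 0.64 (permutation p = 0.0136, adjusted p = 0.0681) and Spearman rho 0.53 (permutation p = 0.0557, adjusted p = 0.139). Without T30 and T32, the arrays farthest from the median of Gh, r was 0.42. Within T28 to T40 it was 0.77 and within T52 to T64 it was 0.35. For Cga, r was 0.42 (permutation p = 0.137, adjusted p = 0.343) and rho 0.64 (permutation p = 0.0151, adjusted p = 0.0755), with r at 0.34 without T30 and T32, 0.22 within T28 to T40 and 0.51 within T52 to T64. For Pomc, S100a8 and S100a9, r was -0.10, 0.08 and 0.21 (permutation p = 0.718, 0.789 and 0.492, adjusted p = 0.789 for each) and rho -0.17, 0.01 and 0.14 (permutation p = 0.553, 0.977 and 0.628, adjusted p = 0.785, 0.977 and 0.785). Without T30 and T32 their r was -0.24, 0.46 and 0.50. Within T28 to T40 it was -0.46, -0.09 and 0.22, and within T52 to T64 -0.63, -0.16 and -0.19. All tests were two-sided, and all 14 arrays lie outside the window chosen by high Gh. The permutations treated the arrays as exchangeable and held no 24-h terms. The arrays are a time series, in which T28, T30 and T32 stood high in Gh one after another, and the p-values do not allow for that. Prl was also among the transcripts that chose the window, so nothing is read from its p-values.

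**Figure D3:**
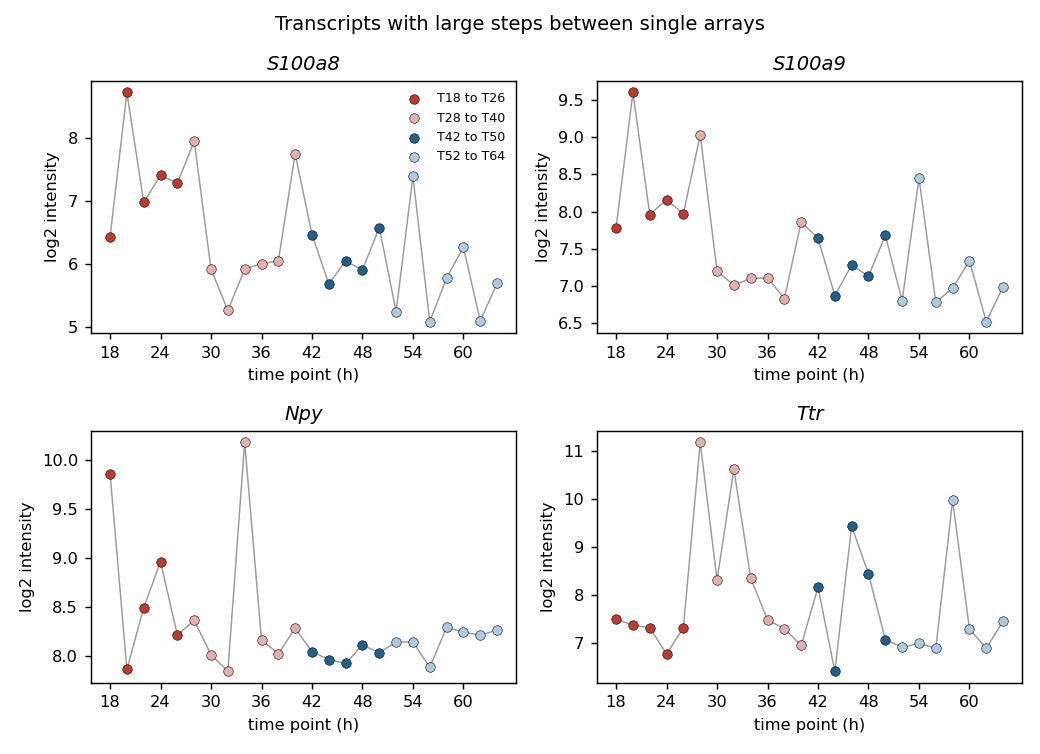
Log2 intensity of S100a8, S100a9, Npy and Ttr (vertical axes, each with its own range) against time point in hours, 1 point per array, coloured by group. S100a8 and S100a9 are highest at T20 with further high arrays at T28 and T54, Npy is high at T18 and T34, and Ttr is highest at T28, T32 and T58.

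Apart from these transcripts the groups of 5 were close. Of the 13956 genes tested, 99.0% had a mean difference of less than 0.25 log2 units in either direction, and 3 reached 1 log2 unit (0.0215%), namely Gh, Prl and S100a8, all higher in the early 5; without the pair that holds T20, S100a8 was at 0.78. In all, 13 genes reached 0.5. Among these were Rmrp, an RNA of the RNase MRP complex (-0.74 ± 0.49), and Nts, the neurotensin precursor (0.58 ± 0.86; SD, n = 5 pairs), and in both the groups overlapped. Limma's paired fit, given here only as a count because the arrays were chosen on this contrast, called 0 genes at an adjusted p of 0.05 in either direction (0.0%), with 1409 at an unadjusted p under 0.05 (10.1%). The spread of Gh and Prl between pairs was itself large.

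The genes outside the pituitary lists whose groups stood apart were mostly of small difference, and only S100a9 and Snora75 passed 0.5. Snora75, a small nucleolar RNA that guides pseudouridine formation, read 6.70 to 7.22 in the early 5 and 5.97 to 6.62 in the later 5, a difference of 0.55 ± 0.30 (SD, n = 5 pairs). Pantr1, a long non-coding RNA, differed by 0.39 ± 0.09, at 7.80 to 8.09 against 7.27 to 7.75. Among the remaining higher genes, Snrpd3, a core protein of the spliceosome, differed by 0.38 ± 0.20, Fcf1, which processes ribosomal RNA, by 0.26 ± 0.14, Tyw3, which modifies transfer RNA, by 0.26 ± 0.11, and Thoc1, of the mRNA export complex THO, by 0.26 ± 0.18. Med11, a Mediator subunit, differed by 0.32 ± 0.16 and the potassium channel gene Kcna4 by 0.29 ± 0.06. AI506816, Ccdc43 and 1700003E16Rik differed by 0.38, 0.31 and 0.28. Over the 14 other arrays, the Pearson r of these genes with Gh ranged from -0.51 for Fcf1 to 0.56 for Thoc1.

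Lower in the early 5 were Magee1, by -0.41 ± 0.21, at 7.64 to 8.30 against 8.32 to 8.81, and Cgn, which encodes the tight junction protein cingulin, by -0.37 ± 0.14. Herpud1, a protein of endoplasmic reticulum-associated degradation, was lower by a nearly equal amount in every pair, -0.30 ± 0.06, at 7.89 to 8.15 against 8.17 to 8.40. The synaptic adhesion gene Lrfn3 differed by -0.33, Slc35e1 by -0.30, Ppp1r13l by -0.28, the centromere histone Cenpa by -0.25, Clip3 and Aqp12 by -0.25 each, the transcription factor Etv4 and the mitochondrial import receptor Tomm22 by -0.24 each, and the beta-catenin gene Ctnnb1 by -0.23.

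The 7 pairs from T28 against T52 to T40 against T64, outside the window chosen by high Gh and Prl, were compared next. The aim was to see which of these differences also occur between the cycles there. Limma called 0 genes higher and 0 lower in the first cycle (0.0% each; 861 genes, 6.17%, at an unadjusted p under 0.05). Gh itself was 0.80 ± 0.31 log2 units higher (SE; 5 of 7 pairs), from T28, T30 and T32, whose pairs differed by 1.11, 2.30 and 2.31. Of the 132 genes that stood higher in the early 5, 92 (69.7%) also had a mean difference above 0 in the 7 pairs, against 46.7% of all genes tested. Of the 88 that stood lower, 59 (67.0%) were also below 0 there, against 53.3% of all genes tested. The sizes were smaller, with medians of 0.03 and -0.04 against 0.18 and -0.16 in the first 5 pairs, and 0 of the 132 and 0 of the 88 also stood apart in the 7 pairs, where 2 genes were higher (0.0143%) and 5 lower (0.0358%) in the first cycle. In the 7 pairs 1 gene, Ttr, reached a mean difference of 1 log2 unit (0.00717%). It came mainly from the pairs of T28 and T32, which differed by 4.27 and 3.73, while the others lay between -1.62 and 1.32. Leaving out the pairs at circadian hours 14 and 16, which hold the arrays of highest background, limma called 0 genes higher and 5 lower, which included the meningeal genes Igf2 (-1.02) and Fn1 (-0.85) beside Osr1, Car13 and Rny3. Without the pair of T38 and T62 alone it called 4 lower, Igf2, Car13, Osr1 and Fn1. No array is shared between the first 5 and the other 7 pairs.

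Kcna4, Clip3, Herpud1 and Tomm22 had mean differences of like size in the 7 pairs, and none passed the threshold. Kcna4 was 0.24 ± 0.07 higher (SE; 6 of 7 pairs; limma adjusted p = 0.784), Clip3 -0.24 ± 0.07 (1 of 7 pairs higher), Herpud1 -0.28 ± 0.11 (1 of 7) and Tomm22 -0.23 ± 0.09 (2 of 7), each with the same adjusted p. The value of Herpud1 rested in part on T40, the array that stood apart, and was -0.15 without that pair. The pair of T40 was also the most extreme of the 7 for Kcna4 (0.56) and Tomm22 (-0.65), and differed by -0.43 for Clip3. Prl, by contrast, differed by 0.21 ± 0.15 (3 of 7 pairs higher) where it had differed by 2.49 in the first 5 pairs, and S100a9 by 0.33 ± 0.28 (5 of 7; adjusted p = 0.833; 0.01 without the pair that holds T28). Cgn was 0.14 ± 0.07 higher in the 7 pairs (6 of 7; adjusted p = 0.784), the opposite sign to the first 5. The difference between both sets of pairs was not tested. The 3 genes with the smallest p in the 7 pairs were Tns2 (-0.26 ± 0.05), Tagln2 (-0.25 ± 0.05) and Ifitm1 (-0.46 ± 0.10), each with an adjusted p of 0.784. The first 5 pairs gave -0.22, -0.13 and -0.06 for them.

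**Figure D4:**
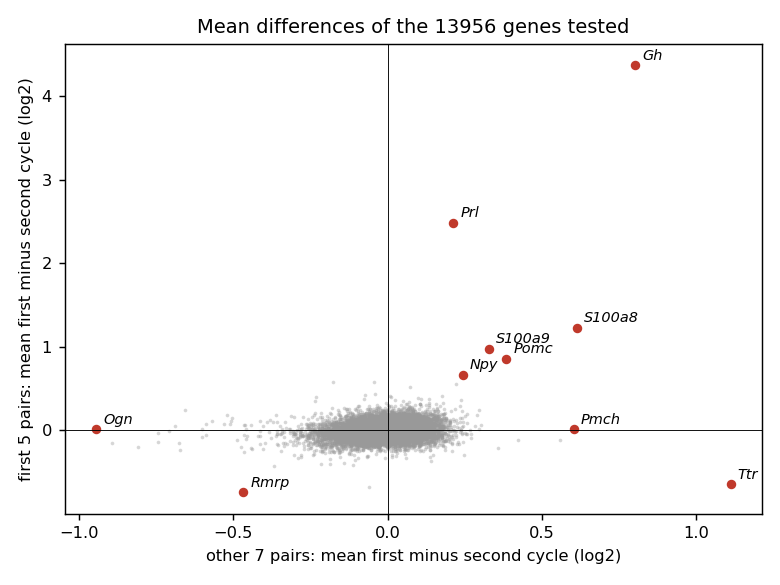
Mean first-cycle minus second-cycle difference in log2 units of the first 5 pairs (vertical axis) against that of the other 7 pairs (horizontal axis), 1 point per gene for the 13956 genes tested, with 10 genes named in red. Gh and Prl lie far above the rest. Ogn lies far out only along the horizontal axis, at 0.01 in the first 5 pairs. Ttr lies far out along the horizontal axis and also below most genes, at -0.65 in the first 5 pairs.

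Transcripts that vary with the pituitary signal were also sought directly, as the slope of each gene on the mean of Gh and Prl over the 14 other arrays, with 24-h terms in the model. Limma called 0 genes with a positive and 0 with a negative slope (0.0% each; 989 genes, 7.09%, at an unadjusted p under 0.05). The smallest p belonged to Medag, with a slope of -0.30 ± 0.05 log2 units per unit (SE; adjusted p = 0.246), Acot10, with 0.43 ± 0.09 (adjusted p = 0.304), and Mapk4, with -0.25 ± 0.05 (adjusted p = 0.304). In the first 5 pairs Medag, Acot10 and Mapk4 differed by 0.14, 0.03 and 0.08. Acot10 alone was called once the background of the arrays was in the model, with 0.48, and array weights gave 75 genes with a positive and 218 with a negative slope, Medag, Acot10 and Mapk4 among them. Without T40 limma called Acot10 and Ephx1, and without T64 Itih5 and Fgl2. The genes most like Gh over the 14 arrays were Txlng and Fnbp1l (Pearson r = 0.84 each), Pnn (0.83), Erich5 (0.82) and Sf3b1 (0.81). In the first 5 pairs, where Gh differed by 4.37, they differed by 0.04, 0.06, 0.08, -0.16 and 0.06.

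Lists of genes of neighbouring tissues and other cells differed more between single arrays than between the groups of 5. The mean of 15 tested meningeal and fibroblast genes was highest on T20, 0.62 above the series mean, but lay at -0.84 on T26, where Gh was 9.22. The partner of T26, T50, was low as well (-0.63), so the median difference over the first 5 pairs was -0.08, with 0 of 15 genes apart. T28, T32 and T34 were low too, at -0.80, -0.90 and -0.51, and in the 7 pairs the median difference of the list was -0.60. Limma called 0 of its genes there, and 11 of 15 had an unadjusted p under 0.05, against 6.17% of all genes tested. Igf2, a growth factor of the meninges in adult brain, was 6.75 on T26 and 8.63 on T20. Its difference was -0.20 ± 0.56 in the first 5 pairs (SD, n = 5 pairs) and -0.81 ± 0.17 in the 7 pairs (SE; adjusted p = 0.784). The same list had a median slope of -0.65 on the mean of Gh and Prl over the 14 arrays. Limma called 0 of these slopes, and 11 of 15 had an unadjusted p under 0.05, against 7.09% of all genes tested. Slc22a6, a meningeal anion carrier, differed by -0.23 ± 0.33.

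Oligodendrocyte genes had a median difference of -0.05 (0 of 10 apart) and a highest list mean at T20, 0.43 above the series mean. Mag and Mbp, myelin proteins, differed by -0.17 ± 0.55 and -0.11 ± 0.37 (SD, n = 5 pairs). Choroid plexus and ependymal genes had a median of 0.02 (0 of 9 apart). Ttr, the transthyretin of choroid plexus, was 6.77 to 7.50 in the early 5, lower than the 11.18 of T28, the 10.62 of T32 and the 9.43 of T46. Its difference in the first 5 pairs was -0.65 ± 1.28 (SD, n = 5 pairs), and the groups overlapped. Of the endothelial and mural genes 0 of 12 stood apart, of astrocyte genes 0 of 10, of microglial genes 0 of 9, of tanycyte and pituicyte genes 0 of 4 and of the blood list 0 of 2, with medians of 0.05, 0.00, -0.06, 0.04 and 0.10. Acta2, of smooth muscle, differed by 0.29 ± 0.41 and Rgs5, of pericytes, by 0.15 ± 0.11, Slc1a2, an astrocyte glutamate transporter, by -0.15 ± 0.07 and Fabp7, a fatty acid binding protein of astrocytes, by 0.23 ± 0.20, C1qc and Csf1r of microglia by -0.13 and -0.10, Crym and Col25a1 by 0.17 and 0.07, Clic6 by 0.13, and Alas2 and Slc4a1 of red cells by 0.15 and 0.05.

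The mean of 9 tested genes of other forebrain neurons was highest on T24, 0.26 above the series mean. Slc17a7, the vesicular glutamate transporter of cortical and hippocampal neurons, read 6.26, 6.11, 6.66, 7.16 and 6.07 at T18 to T26 and 5.69 to 6.17 at T42 to T50, a difference of 0.52 ± 0.45 (SD, n = 5 pairs), or 0.32 without the pair that holds T24. Tbr1, a factor of cortical projection neurons, differed by 0.31 ± 0.27 and was also highest at T24, with 6.67. Both were higher in 5 of 5 pairs, but the groups overlapped, and the list median was 0.04. Among neighbouring hypothalamic peptides, Cartpt was higher in 5 of 5 pairs by 0.40 ± 0.14 and Npy in 4 of 5 by 0.66 ± 0.74 (0.38 without the pair that holds T18), with a list median of 0.09 and 0 of 11 apart. Among releasing hormones, Ghrh differed by 0.29 ± 0.24 and Th, the dopamine synthesis enzyme, by 0.27 ± 0.16, with 0 of 5 apart.

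**Figure D5:**
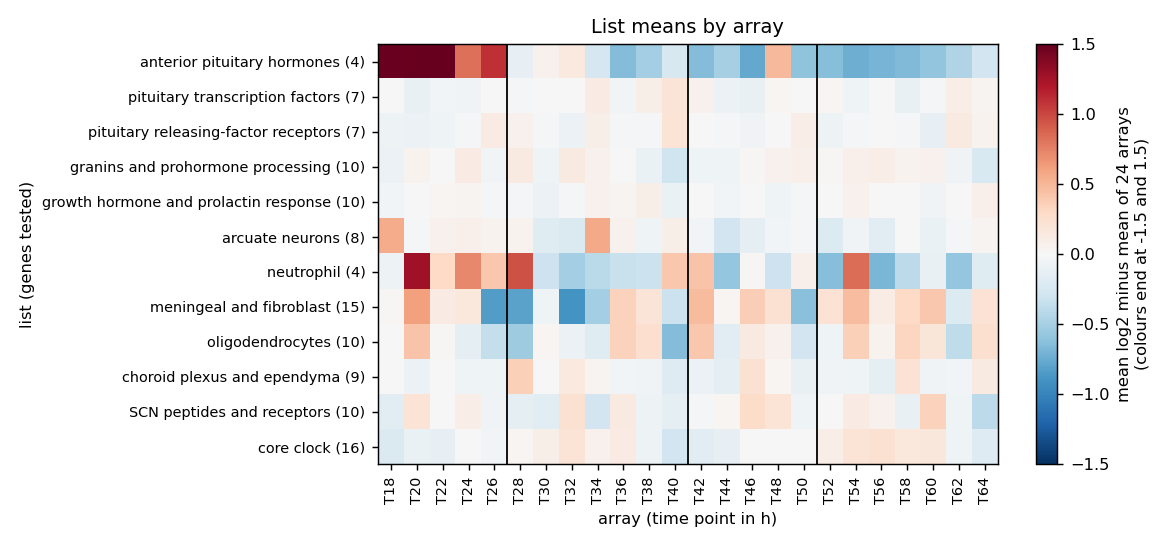
Mean log2 level of the tested genes of 12 lists (rows, with the number of genes) on each array (columns in time order, black lines between groups), as the difference from the mean of the list over 24 arrays in colour. The hormone list is high on all of T18 to T26, with T48 the highest later array; the neutrophil list is high on T20, T24, T28 and T54, the arcuate list, which holds Npy and Pomc, on T18 and T34, and the meningeal list is low on T26, T28, T32, T34 and T50.

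The genes of the SCN clock and its outputs were close between the early 5 arrays and their partners. The median differences were -0.02 for 16 core clock genes, -0.06 for 11 SCN identity factors and -0.11 for 10 SCN peptides and receptors. In each of these lists 0 genes stood apart, against 0.946% (higher) and 0.631% (lower) of all genes tested. Nr1d1, a repressor of Arntl, was lower in 5 of 5 pairs by -0.25 ± 0.19, and Ciart, a repressor of CLOCK and BMAL1, in 4 of 5 by -0.28 ± 0.32 (SD, n = 5 pairs). In the 7 pairs Nr1d1 differed by -0.18 ± 0.08 (SE; 1 of 7 pairs higher; limma adjusted p = 0.784). Per1, a period gene, was lower there in 7 of 7 pairs by -0.28 ± 0.06 (SE; limma adjusted p = 0.784), whereas the first 5 pairs differed by -0.01 ± 0.06 (SD, n = 5 pairs). The SCN factors Lhx1 and Six3 differed by -0.20 each, and the peptides Nms and Nmu by -0.25 ± 0.25 and 0.24 ± 0.27. Of 19 immediate early and light-induced genes 0 stood apart. Egr1 was higher in 5 of 5 pairs by 0.32 ± 0.15, at 6.29 to 6.70 against 6.11 to 6.47, whereas Rasd1 differed by -0.20 ± 0.37.

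Of the inducible lists, 0 of 13 glucocorticoid-induced, 0 of 12 heat shock and 0 of 9 interferon-induced genes stood apart, with medians of 0.03, 0.01 and 0.00. Over all genes tested the shares apart were 0.946% (higher) and 0.631% (lower). Sgk1, a kinase induced by glucocorticoids, reached 8.49 on T20 and lay between 7.24 and 7.58 on the other early arrays; T36 and T60 read 9.04 and 8.62. Hspa1a, the inducible HSP70, was higher in 5 of 5 pairs by 0.26 ± 0.17, Chordc1 by 0.12 ± 0.09, and the interferon-induced Ifit3b and Ifit3 by 0.30 ± 0.12 and 0.20 ± 0.11 (SD, n = 5 pairs). Sult1a1 was lower in 5 of 5 pairs by -0.15 ± 0.12.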

How the data were processed

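Amplified RNA of 24 pools of SCN tissue, each from 3 mice, was hybridised to single-colour Affymetrix arrays. The values that the authors deposited are log2 probe set intensities, normalised across arrays with RMA version 1.3.1.187 in Affymetrix Expression Console, per the submitters' processing notes; the background and summarisation settings and a genome build are not given in the sources used here. Of 35556 probe sets, the platform annotation gave 21789 a single gene symbol, 1621 several and the others none. Entrez identifiers of 21698 were found in the RefSeq gene table of GRCm38.p6, which altered 0 symbols. For 19938 genes the probe set of highest mean was kept. The main limma fits covered the 13956 genes whose mean over 24 arrays exceeded log2 5.52, the 30th percentile. The correlations with Gh also included Cga, which lay below this filter.

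Arrays were paired by circadian time, 24 h apart, with circadian time as a block. Linear models were run in limma (version 3.58.1, R version 4.3.3), moderated by eBayes; two-sided p-values were adjusted by Benjamini-Hochberg over all genes tested, at 0.05. Correlations had 100000 permutations each. Python 3.11.15 with pandas 2.3.3 made the tables. The slope was fitted beside 24-h cosine and sine terms. In both sets of pairs, arrays of a pair deviated together in part only (correlations of deviations from the group means -0.13 to 0.46 and -0.09 to 0.37), and the block was kept because the time points of the labels pair the arrays. "Apart" means that all arrays of 1 group lie above all of the other.

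Fits were tried on simulated data of 13956 genes, with noise independent between genes. The 7-pair fit recovered 40% of genes changed by 0.3 log2 units and 96% changed by 0.6. The slope fit recovered 60% of slopes of 0.3 and 96% of slopes of 0.6. The changed genes were drawn at random, so these shares need not hold for genes that vary widely between arrays. Named genes were all measured pituitary genes of 3 lists, the 12 highest and 12 lowest genes outside them whose groups of 5 stood apart, the 3 with the smallest p in each test, 2 of each other list by size of difference and the 5 most like Gh. The members, lists and rules were chosen with earlier results of these data known; the neutrophil, platelet and arcuate lists, and genes named besides the rule (S100a8, Lcn2, Ppbp, Per1, Rmrp, Nts and single list members), were chosen after their values were seen.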

Additional observations from a re-analysis of the deposited data

Results flagged for a closer look

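The paired differences of 104 named genes were examined in both sets of pairs for 1 pair far from the others. In 10 of 208 sets (4.81%) 1 pair stood out, close to the 1 in 20 that chance gives. Of these, 3 concern T34: its pair differed by 1.38 for Pomc (the other 6 pairs lay between -0.13 and 0.49), by 1.89 for Npy (-0.19 to 0.21) and by -0.27 for Gnrhr (-0.02 to 0.15). T20 stood out for Sgk1, by 0.95 (the others -0.11 to 0.06), and for Chordc1, by 0.29 (0.06 to 0.10). The remaining ones were Ghrhr for T22 (0.20), AI506816 for T24 (0.08, below the other pairs at 0.44 to 0.47), Bcl6 for T18 (-0.53), Mtnr1a for T38 (0.54) and Fcf1 for T40 (0.52).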

How the results depend on the processing

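Counts of genes called were 0 in each of the 3 comparisons. Of 1121 alternative values of named genes in the first 5 pairs, 18 changed sign, in 8 genes (Gata2, Crhr1, Lhb, Lhx3, Lhx4, Ghrhr, Sgk1 and Bcl6) whose groups all overlapped; Sgk1 went from 0.18 to -0.02 without the pair that holds T20 and Bcl6 from -0.08 to 0.03 without the pair that holds T18. In the 7 pairs and for the slope 0 did, among 54 and 74 values. These covered only the 3 genes with the smallest p in each test, so other genes were not checked there. In the first 5 pairs limma called 2 genes with a trended and robust prior (Cartpt and Pantr1) and 3 without the pairs that hold T20 and T48, an alternative chosen after seeing the data; leaving out 1 pair gave 0 to 1. The latter calls are mostly of Gh and Prl, by which the arrays were chosen, and Cartpt and Pantr1 were named from this same contrast. These counts and calls therefore test nothing. In the 7 pairs it called 5 genes without the pairs at circadian hours 14 and 16, and 0 to 4 when 1 pair was left out, the 4 without T38 and T62. For the Gh and Prl slope in other 14 arrays it called 1 gene with the array background as a covariate, 293 with array weights (75 positive, 218 negative), 4 without T40, T62 and T64, and 0 to 2 when 1 array was left out, 2 each without T40 and without T64. Array weights thus decide that count, and the cause was not tested. Without the replicate block the counts were 0 and 0, as they were with other filters, quantile normalisation, median centring and all probe sets. Centring moved the median of all genes by at most 0.02. With 5 or 7 pairs, differences near 0.3 log2 units may have been missed, and much larger ones in genes that vary widely between pairs. In the first 5 pairs even Gh, at 4.37 ± 2.20 (SD), was not called in the main fit. A count of 0 thus does not exclude large differences.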
